A study of Mus musculus with 6 samples.

Results

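The 10 genes described here were read as markers to tell the endothelium that lines the liver sinusoids from the endothelium of ordinary capillaries. They comprise 6 sinusoidal genes, Stab1, Stab2, Lyve1, Clec4g, Fcgr2b and Mrc1, and 4 capillary genes, Cd34, Plvap, Esm1 and Emcn, taken by symbol from the 32285 genes listed in the count tables, where all 10 were present. They were followed in the endothelial nuclei of every library, defined as nuclei in which at least 3 of the 7 endothelial genes Ptprb, Flt1, Kdr, Tek, Cdh5, Ldb2 and Egfl7 were detected. This rule found 5284 endothelial nuclei among 39012 nuclei that passed quality control and 41882 deposited barcodes.

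Single nuclei RNA sequencing had been performed on snap-frozen livers of 6 male DIAMOND mice, a cross of C57BL/6J with the strain labelled 129A1/SvIm in which diet leads to fatty liver disease and then to liver tumors, with 1 library per mouse and 2 mice per group. Diets were started at 2 months of age. The Ctrl group stayed on Chow Diet for 40 weeks, the Pre-T group on Western Diet (high-fat food with sugar water) for 40 weeks without having developed tumors, and the Post-T group on Western Diet for 48 weeks, by when tumors had developed. The Post-T group therefore differed from the others in time on diet and in age as well as in tumors, the titles of its libraries name tumor while their tissue field names liver, and the groups were caged separately, so that diet, age, cage and tumor cannot be told apart. Nothing states how much tumor or surrounding liver each Post-T piece held.

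Sinusoidal endothelium is an open, fenestrated lining without a firm basement membrane, and it clears macromolecules and immune complexes from portal blood through scavenger receptors. The endothelium of continuous capillaries lacks these receptors in large part and carries Cd34 and a basement membrane. Loss of the sinusoidal state and gain of capillary traits is known as capillarization, and is described in fibrotic liver and in the vessels of hepatocellular carcinoma.

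Promoter sequence is given for Clec4g and for 3 capillary genes, because among the 10 genes these differed most between Post-T and Ctrl. Each run, 5′ to 3′ on the strand of the gene (RefSeq, GRCm38.p6), holds the 250 bases before the RefSeq start, cut before the first base annotated as exon (239 bases for Emcn and 248 for Cd34). Capitals mark AGGAAG, a core recognised by ETS factors, on either strand, where matches may overlap.
Clec4g (chr8:3720652-3720901, minus strand): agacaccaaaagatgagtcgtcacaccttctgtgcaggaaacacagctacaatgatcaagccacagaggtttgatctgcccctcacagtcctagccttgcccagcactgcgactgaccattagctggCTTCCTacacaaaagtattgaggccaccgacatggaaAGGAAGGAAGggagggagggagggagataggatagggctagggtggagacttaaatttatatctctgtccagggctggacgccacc
Esm1 (chr13:113209409-113209658, plus strand): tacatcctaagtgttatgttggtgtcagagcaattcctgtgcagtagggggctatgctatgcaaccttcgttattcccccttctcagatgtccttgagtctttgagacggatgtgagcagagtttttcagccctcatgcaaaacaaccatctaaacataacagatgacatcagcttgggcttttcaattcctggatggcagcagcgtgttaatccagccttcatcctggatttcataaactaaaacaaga
Emcn (chr3:137340828-137341066, plus strand): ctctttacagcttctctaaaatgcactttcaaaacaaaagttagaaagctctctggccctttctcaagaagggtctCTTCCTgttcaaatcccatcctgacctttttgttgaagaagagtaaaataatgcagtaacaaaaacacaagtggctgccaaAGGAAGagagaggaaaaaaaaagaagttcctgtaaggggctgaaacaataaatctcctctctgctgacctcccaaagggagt
Cd34 (chr1:194938571-194938818, plus strand): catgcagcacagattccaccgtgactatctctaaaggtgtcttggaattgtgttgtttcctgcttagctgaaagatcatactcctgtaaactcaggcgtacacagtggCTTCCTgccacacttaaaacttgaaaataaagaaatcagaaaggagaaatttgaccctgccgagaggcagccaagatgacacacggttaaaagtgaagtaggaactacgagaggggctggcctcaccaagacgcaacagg
AGGAAG was found 3 times before Clec4g, 2 times before Emcn and 1 time before Cd34, and was not found before Esm1. In the full 250 bases of the other members with a sequence, it was found 3 times before Mrc1, 1 time each before Stab1 and Stab2, and not before Fcgr2b. It stood in 29.5% of 32851 mouse promoters of the same length. AGATAA, a core recognised by GATA factors, was found before none of the 8 members with a sequence, against 9.99% of promoters. A match is only a run of letters, and the absence of one says nothing of the factor in these cells. Lyve1 and Plvap had no entry.

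The endothelial nuclei numbered 869 in Ctrl 1, 933 in Ctrl 2, 527 in Pre-T 1, 911 in Pre-T 2, 653 in Post-T 1 and 1391 in Post-T 2. They made up 9.75 to 12.0% of the nuclei kept in the first 5 of these mice and 26.1% in Post-T 2. Their median depth lay between 1536 UMIs (unique molecular identifiers, 1 per captured RNA molecule) in Post-T 1 and 2916 in Pre-T 1. The 10 genes together took 3445 to 15001 UMIs per mouse. Of the genes of the rule itself, Ptprb, the vascular endothelial phosphatase, was detected in 92.5 to 94.3% of the endothelial nuclei, and Tek, the angiopoietin receptor, in 32.2 and 35.1% in the Post-T mice and 60.0 to 62.2% in the others. Flt1 stood at 2459 and 892 CPM (UMIs per 1000000 UMIs) in Post-T and 406 to 516 in the others, Cdh5 at 273 and 269 against 104 to 137, and Ldb2 at 2751 and 2652 against 1028 to 1551. These values helped to choose the nuclei and are given without a test.

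A part of these nuclei also met the marker rule of another class, 339, 291, 160 and 297 in the Ctrl and Pre-T mice, and 43 and 62 in the Post-T mice, 1192 in all. Most in the Ctrl mice were hepatocyte (313 and 253). The summed level of 8 hepatocyte markers in the endothelial nuclei was 6467 and 7048 CPM in Ctrl, 2013 and 2835 in Pre-T and 1515 and 1568 in Post-T, with all 8 detected in each mouse. The 7 stellate and fibroblast markers likewise stood at 208 and 67.1 CPM in Post-T against 710 to 892 in the other mice, and the 8 macrophage markers at 722 and 851 CPM in Pre-T against 45.5 to 340 in the others. Because CPM is a share of all UMIs, these transcripts are part of the total by which every level below is divided. The tests and the capillary share of UMIs were therefore also computed without the nuclei that met the hepatocyte, T, macrophage or B rule. The thinned shares, the detection of genes in the same nuclei and the likeness of genes were not. No rule was set for stellate cells and fibroblasts, so this step did not address their RNA. Libraries shared 181 barcodes, of which 3 were endothelial in both libraries.

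The sinusoidal receptors were present in the endothelial nuclei of all 6 mice. Stab2, the main hyaluronan scavenger receptor of the liver sinusoid (GRCm38, chr10:86841198-87008025, minus strand), stood at 1951 and 2237 CPM in Ctrl, 1623 and 1732 in Pre-T, and 1016 and 2110 in Post-T. The Post-T mice thus enclosed the Pre-T values, and Post-T 1 alone was low. Stab1, its scavenger paralog (chr14:31139013-31168641, minus strand), stood at 315 and 375 CPM in Ctrl, 320 and 268 in Pre-T and 330 and 416 in Post-T. Neither stabilin passed the test in any comparison, with log2 fold changes in Post-T against Ctrl of -0.25 (SE 0.40) for Stab2 and 0.26 (SE 0.24) for Stab1.

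Clec4g, the C-type lectin LSECtin (chr8:3707064-3720651, minus strand), was the sinusoidal gene with the lowest Post-T levels relative to Ctrl. It stood at 152 and 232 CPM in Ctrl, 184 and 231 in Pre-T, and 29.0 and 80.2 in Post-T, so that both Post-T mice lay below the other 4. The log2 fold change was -1.59 (SE 0.50) against Ctrl, with an adjusted p of 0.116 in edgeR and 0.0351 in DESeq2. Against Pre-T it was -1.51 (SE 0.50), with an adjusted p of 0.142. Leaving out the nuclei of another class gave -2.04 (adjusted p = 0.0679) against Ctrl.

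Fcgr2b, the inhibitory Fc receptor with which sinusoidal cells take up immune complexes (chr1:170958617-170976547, minus strand), stood at 121 and 200 CPM in Ctrl, 196 and 193 in Pre-T, and 40.9 and 113 in Post-T. The Post-T mice lay below the others here too, but Post-T 2 came close to Ctrl 1, and the difference from Ctrl was not significant (log2 fold change -0.84, SE 0.49, adjusted p = 0.362). Mrc1, the mannose receptor (chr2:14229392-14332057, plus strand), stood at 441 and 649 CPM in Ctrl, 671 and 532 in Pre-T and 265 and 554 in Post-T, and its groups overlapped. Lyve1, a hyaluronan receptor of sinusoids and lymphatics (chr7:110850607-110863239, minus strand), was detected by few UMIs, 27.8 and 24.6 CPM in Ctrl, 62.7 and 40.7 in Pre-T and 34.3 and 62.9 in Post-T. Both Western Diet groups lay above Ctrl, without passing the test (log2 fold change 1.07, SE 0.39, adjusted p = 0.162 for Post-T).

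The sinusoidal genes depended on which Post-T mouse was read. With Post-T 2 left out, the log2 fold changes in Post-T against Ctrl were -2.73 for Clec4g, -1.98 for Fcgr2b and -1.06 for Stab2. With Post-T 1 left out, they were 0.27 for Stab2 and 1.51 for Lyve1. Each of these fits holds 1 Post-T mouse.

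The capillary genes were higher in Post-T than in Ctrl. Esm1, the proteoglycan endocan of growing vessel tips (chr13:113209659-113218098, plus strand), stood at 5.24 and 13.1 CPM in Ctrl, 73.3 and 15.9 in Pre-T, and 168 and 337 in Post-T. The 3 groups did not overlap, and the Pre-T mice lay far apart. Post-T exceeded Ctrl 31.3-fold (log2 fold change 4.97, SE 0.82, edgeR adjusted p = 0.0182).

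Emcn, the sialomucin endomucin of capillaries and veins (chr3:137341067-137432185, plus strand), stood at 95.3 and 107 CPM in Ctrl, 162 and 112 in Pre-T, and 269 and 491 in Post-T. It was 4.23-fold higher in Post-T than in Ctrl (log2 fold change 2.08, SE 0.37, edgeR adjusted p = 0.0232) and 3.64-fold higher than in Pre-T (1.86, SE 0.37, edgeR adjusted p = 0.0417). Cd34, the sialomucin used in pathology to mark capillarized vessels (chr1:194938819-194961279, plus strand), was counted with 11 to 45 UMIs per Ctrl and Pre-T mouse and 89 and 165 per Post-T mouse. Its levels were 14.7 and 3.80 CPM in Ctrl, 17.2 and 11.6 in Pre-T, and 58.7 and 46.9 in Post-T, with both Post-T mice above the other 4. The change from Ctrl was 5.98-fold (log2 fold change 2.58, SE 0.54, edgeR adjusted p = 0.0347).

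Plvap, the protein of fenestral diaphragms (chr8:71497765-71511752, minus strand), followed another order. It stood at 22.3 and 36.0 CPM in Ctrl, 70.6 and 57.5 in Pre-T, and 61.4 and 57.2 in Post-T, so that both Western Diet groups lay above Ctrl and overlapped each other. Post-T exceeded Ctrl 2.23-fold (log2 fold change 1.16, SE 0.25, edgeR adjusted p = 0.0406). Pre-T was 1.90-fold higher than Ctrl, which did not pass the test (adjusted p = 0.127).

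**Figure D1:**
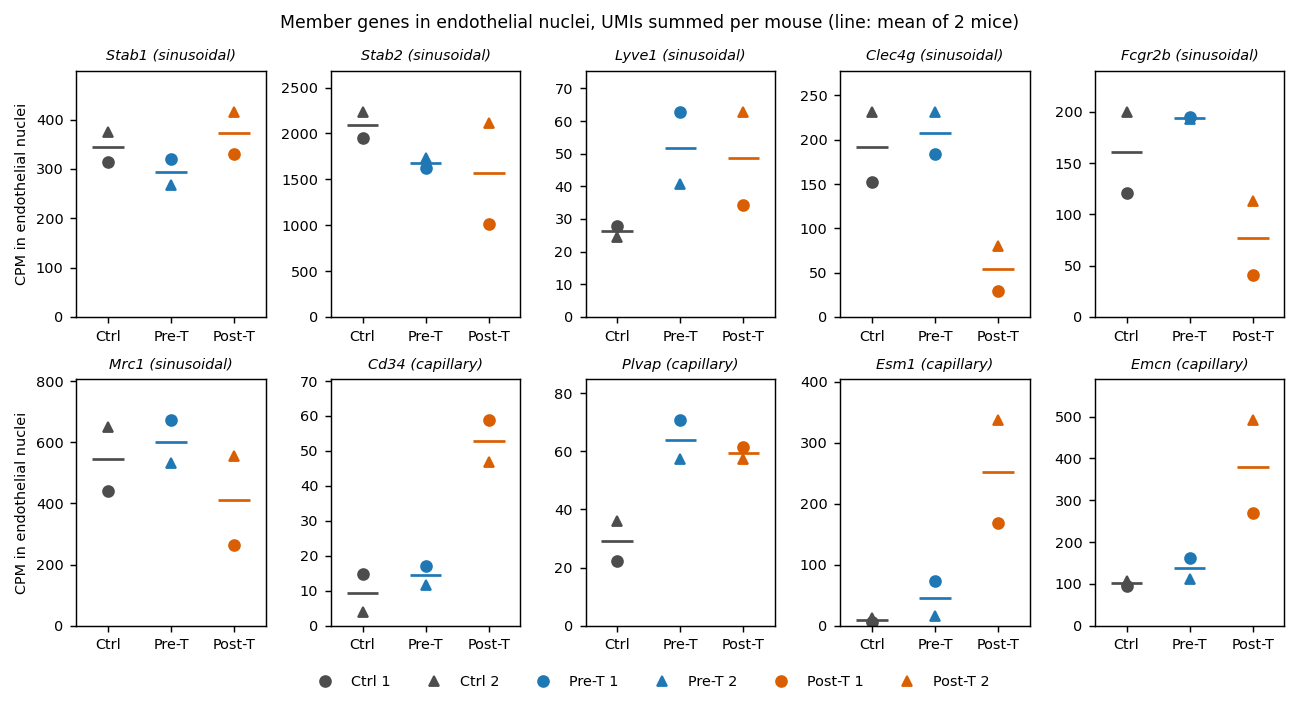
Levels of the 10 genes in endothelial nuclei, with 1 panel per gene, CPM from 0 on the vertical axis and the 3 groups on the horizontal axis. Points are mice and lines are means of 2 mice. Clec4g has both Post-T mice lowest (29.0 and 80.2 CPM), whereas Cd34, Esm1 and Emcn have both Post-T mice highest, and Plvap is as high in Pre-T as in Post-T.

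In Post-T against Ctrl, edgeR called 4 of the 4 capillary genes higher, while over all 20160 genes tested 6.83% were called and 2.51% were called higher (1377 and 507 genes). Of the 6 sinusoidal genes it called 0, with Clec4g and Lyve1 at an unadjusted p under 0.05, where 22.3% of all genes were. The median log2 fold change was 2.33 over the capillary genes and -0.24 over the sinusoidal genes, against -0.07 over all genes. DESeq2 called 5 of the 10, adding Clec4g, where it called 11.8% of the genes it tested. The CPM of the groups did not overlap for 7 of the 10, 5 with Post-T above, against 49.1% and 16.2% of all genes. The 10 genes were chosen with earlier results of these data known, so their counts beside all genes are a description.

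In Post-T against Pre-T, edgeR called Emcn alone of the 10, against 3.94% of all genes in either direction and 1.53% higher. At an unadjusted p under 0.05 were 5 of the 10, where 21.3% of all genes were. DESeq2 called Emcn, Cd34 and Esm1, against 8.89%. Non-overlap was found for 6 of the 10 and 55.8% of all genes. In Pre-T against Ctrl, edgeR called 0 of the 10, against 1.01% of genes, with Plvap and Esm1 at an unadjusted p under 0.05, where 17.3% of all genes were, and DESeq2 also called 0, against 5.95%. Non-overlap was found for 5 of the 10 and 54.2% of all genes. The comparisons share groups and are not independent of each other.

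**Figure D2:**
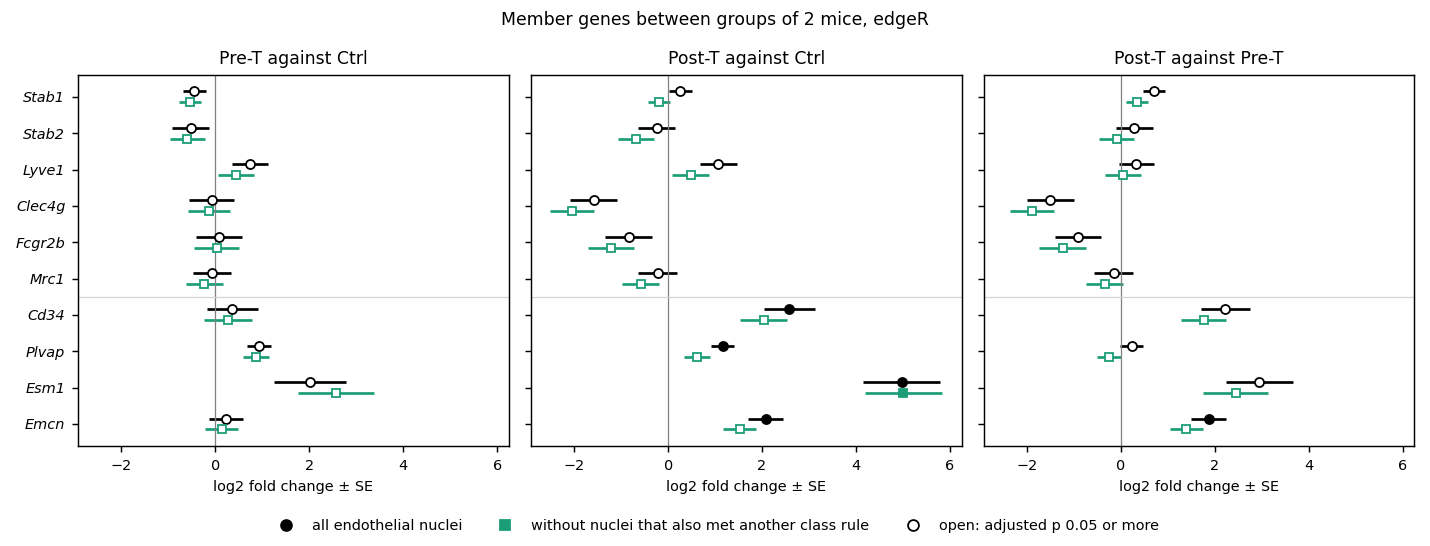
Log2 fold change with its standard error (horizontal axis) of each gene in the 3 comparisons, 2 mice per group, edgeR. Circles are all endothelial nuclei, squares leave out nuclei that met another class rule, and filled symbols have an adjusted p under 0.05. In Post-T against Ctrl the 4 capillary genes lie between 1.16 and 4.97 with all nuclei, and only Esm1 is filled in both sets.

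These calls leaned on the nuclei and mice included. Without the 1192 nuclei that met another class rule, only Esm1 was called in Post-T against Ctrl (5.01, adjusted p = 0.0245), among 2.56% of genes. Emcn was then at 1.52 (adjusted p = 0.0680), Cd34 at 2.03 (adjusted p = 0.0795) and Plvap at 0.61 (adjusted p = 0.310), and Emcn was no longer called against Pre-T (1.39, adjusted p = 0.109). In that set Esm1 stood at 9.99 and 11.4 CPM in Ctrl and 201 and 381 in Post-T, and Emcn at 175 and 184 against 326 and 545. Of the 4 capillary calls, only Cd34 was kept without Ctrl 1, none without Ctrl 2, Pre-T 1 or Pre-T 2, and Emcn and Esm1 without Post-T 1 or Post-T 2. The log2 fold changes over these 6 fits lay between 4.19 and 5.69 for Esm1, 1.40 and 2.54 for Emcn, 1.88 and 3.95 for Cd34 and 0.90 and 1.47 for Plvap.

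The share of nuclei with a UMI was compared at a fixed depth of 500 UMIs per nucleus, which left out no endothelial nucleus. At this depth Esm1 was found in 0.460% (exact binomial 95% interval 0.126 to 1.17) and 0.857% (0.371 to 1.68) of endothelial nuclei in Ctrl, 4.93% (3.25 to 7.15) and 0.988% (0.453 to 1.87) in Pre-T, and 6.28% (4.54 to 8.42) and 13.7% (11.9 to 15.6) in Post-T. Before thinning the shares were 1.15 and 2.89%, 15.7 and 3.95%, and 17.5 and 41.0%. Pre-T 1 thus resembled Post-T 1 more than its own group. Clec4g was found in 8.86 and 13.5% of thinned nuclei in Ctrl, 10.8 and 13.3% in Pre-T and 1.38 and 3.59% in Post-T, or 33.6 and 41.6%, 42.1 and 47.0%, and 4.44 and 12.7% before thinning. Emcn was found in 5.64 and 5.57%, 8.73 and 5.93%, and 10.4 and 17.3% after thinning, and in 22.0 and 22.2%, 35.9 and 27.3%, and 29.6 and 49.2% before. Intervals for the 10 genes in endothelial nuclei reached at most 4.28 points to either side of their midpoint, and cover counting error only.

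Hepatocyte and T nuclei gave the background of free RNA. Over the 10 genes, hepatocyte nuclei (median 3592 to 9386 UMIs, thinned likewise) carried a UMI in 0 to 3.65% and T nuclei (1398 to 1793 UMIs) in 0 to 6.40%, highest for Stab2 in the former and for Stab2 and Mrc1 alike in the latter, and the endothelial share was above the hepatocyte share in 6 of 6 mice for every gene. A share of 0 among T nuclei allows up to 1.13 to 5.56%, since these were few. Stab2 was found in 21.9 to 52.1% of endothelial nuclei against 0.687 to 3.65% of hepatocyte nuclei. Cd34, in 0.322 to 3.37% of endothelial nuclei against 0 to 0.117% of hepatocyte nuclei, was near its floor outside Post-T. For Plvap and Esm1 the endothelial share exceeded that of T nuclei in 5 of 6 mice. The exceptions were both in Ctrl 1, at 1.38 against 1.60% and 0.460 against 0.800%. Before thinning, Plvap stood in T nuclei at 11.5 and 16.2 CPM in Ctrl and 13.3 and 33.4 in Pre-T. In B nuclei of Pre-T 2 it reached 45.2 CPM (9 UMIs), against 57.5 in endothelial nuclei. The part of free RNA in the Pre-T level of Plvap was not tested. The Esm1 share of T nuclei in Ctrl 1 was 1 of 125 nuclei. Hepatocyte nuclei carried Esm1 in 0 of 3429 in Ctrl 1 and 0.0574% in Ctrl 2. The Ctrl level of Esm1 was thus low, above the hepatocyte background but not clearly above that of the few T nuclei. Its fold changes from Ctrl are ratios to such a level.

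Mrc1 and Fcgr2b were shared with immune classes. Mrc1, which resident macrophages also express, was found in 12.0 to 38.3% of thinned macrophage nuclei, and the endothelial share was higher in only 2 of 6 mice. Fcgr2b, the Fc receptor of B cells, was found in 1.41 to 10.3% of B nuclei. This was above the endothelial share in Post-T 1, where it was 1 of 17 B nuclei. Stab2 reached 2.62 to 12.5% of macrophage nuclei. The part of macrophages and B cells in the levels of Mrc1 and Fcgr2b was not tested.

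**Figure D3:**
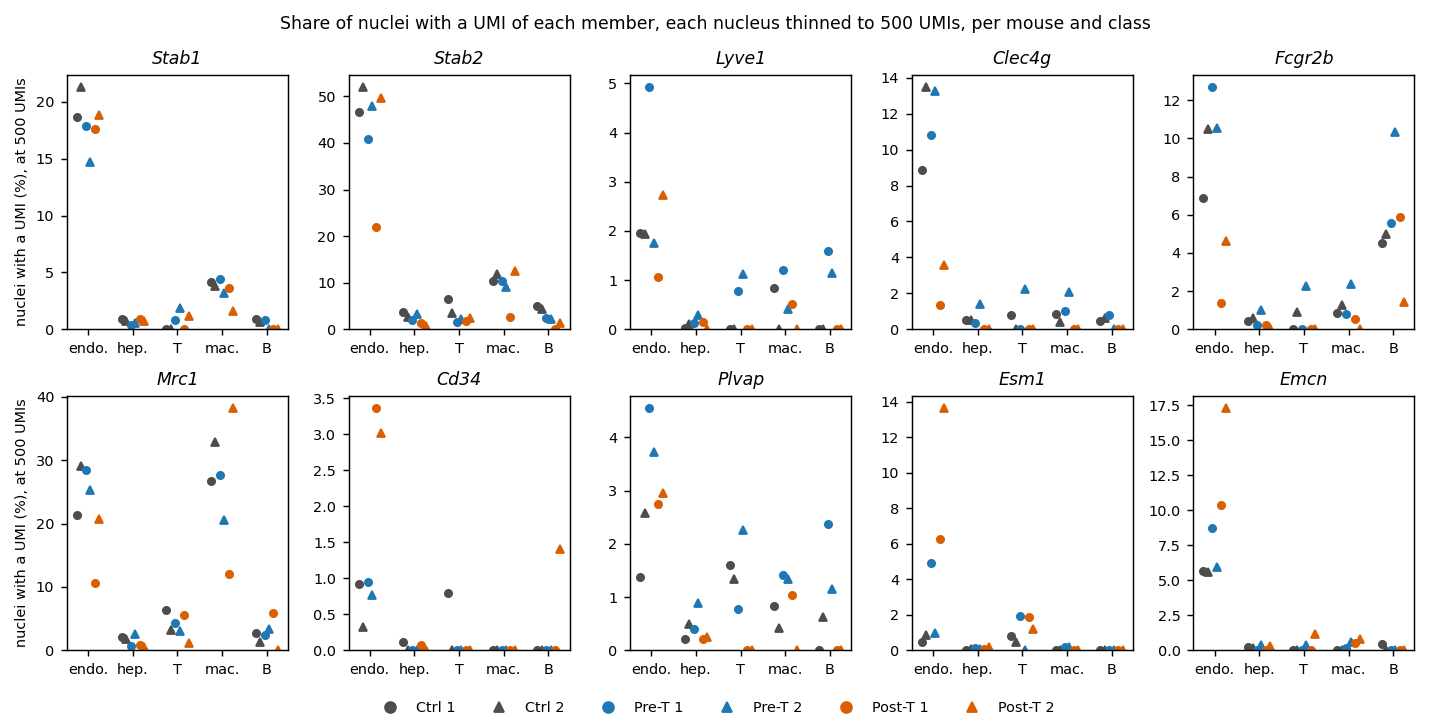
Share of nuclei with a UMI of each gene (vertical axis, percent, each nucleus thinned to 500 UMIs) in endothelial, hepatocyte, T, macrophage and B nuclei (horizontal axis). Points are mice. Stab2 reaches 52.1% of endothelial nuclei and at most 3.65% of hepatocyte nuclei, and Mrc1 is as common in macrophage as in endothelial nuclei.

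Sinusoidal and capillary genes were then read in the same nuclei. The 4 capillary genes took 4.37 and 4.11% of the UMIs of the 10 genes in Ctrl, 9.57 and 6.16% in Pre-T, and 24.5 and 21.8% in Post-T. Post-T exceeded Ctrl by 18.9 points and Pre-T by 15.3 points, and Pre-T exceeded Ctrl by 3.62 points. This share does not depend on the hepatocyte RNA in the total, and was 19.0 points higher in Post-T than in Ctrl without nuclei of another class and 18.4 points higher after thinning. No p is given for it, since 2 against 2 mice allow none below 0.33 in an exact permutation test.

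Nuclei with UMIs of both kinds made up 4.72 and 5.89% of thinned endothelial nuclei in Ctrl, 13.5 and 8.12% in Pre-T, and 9.65 and 20.8% in Post-T. Nuclei with capillary genes only made up 3.34 and 3.22%, 4.55 and 2.85%, and 11.3 and 11.1%. Sinusoidal genes only were found in 54.9 and 62.8% in Ctrl, 51.6 and 59.7% in Pre-T, and 30.2 and 45.7% in Post-T. The Post-T mice were thus alike in capillary-only nuclei and unlike in the rest, 48.9% of Post-T 1 nuclei holding neither kind against 22.4% in Post-T 2.

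**Figure D4:**
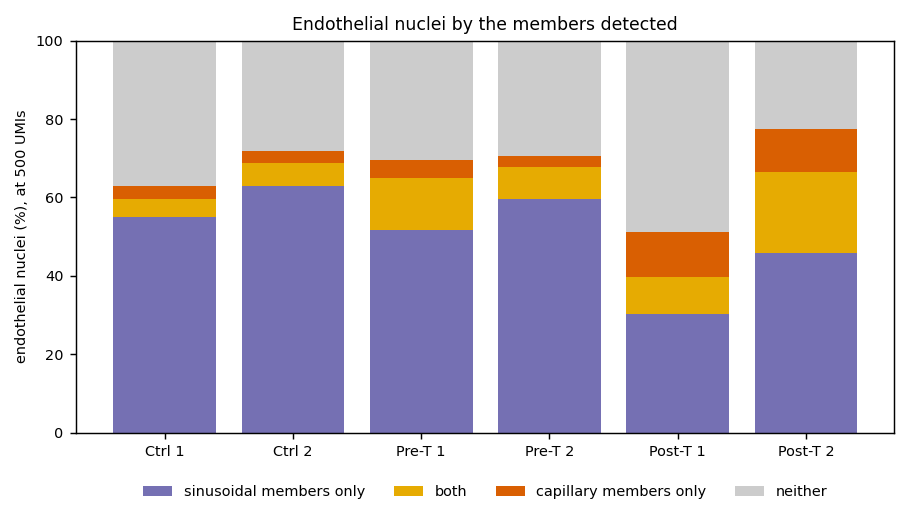
Endothelial nuclei of each mouse by the genes detected at 500 UMIs (vertical axis, percent of endothelial nuclei; colours, sinusoidal only, both, capillary only, neither). The capillary-only part is 11.3 and 11.1% in Post-T and 2.85 to 4.55% in the other mice.

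Capillary genes were found in nuclei with a Stab2 UMI as well as in those without one. In Post-T 2, Esm1 was detected in 14.5% of 692 thinned nuclei with Stab2 and 12.9% of 699 without, and Emcn in 17.2 and 17.5%. In Post-T 1, Esm1 was detected in 13.3% of 143 nuclei with Stab2 and 4.31% of 510 without, and Emcn in 11.9 and 10.0%. Clec4g followed Stab2 in these mice, at 5.06 against 2.15% in Post-T 2 and 3.50 against 0.784% in Post-T 1. Nuclei with a Stab2 UMI before thinning, 237 in Post-T 1 and 1023 in Post-T 2, were also read alone. This selection was made after the data had been seen. Among them edgeR called 6 of the 9 genes other than Stab2 in Post-T against Ctrl, among 9.05% of genes. Esm1 (5.14, adjusted p = 0.00281), Cd34 (3.36), Emcn (2.19), Plvap (1.34) and Lyve1 (1.39) were higher and Clec4g (-1.50, adjusted p = 0.0317) was lower. Before thinning, Stab2 was also found in 12.4 to 29.5% of hepatocyte nuclei in the Ctrl and Pre-T mice. In Post-T 1 it was found in 21.0% of hepatocyte nuclei and 36.3% of endothelial nuclei, so stray Stab2 UMIs bear on this selection too. How far 1 droplet holding 2 nuclei accounts for nuclei with both kinds was not tested.

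Other genes of the sinusoidal program were taken from a list of 14, made with earlier results of these data known. In Post-T against Ctrl edgeR called 0 higher and 1 lower, where 4.32% of all genes were called lower. At an unadjusted p under 0.05 were 4 of the 14, against 22.3% of all genes, and DESeq2 called 4 lower, against 6.96%. Of the 14, 1 was above 0, with a median log2 fold change of -0.70, against -0.07 over all genes. The gene called was Gata4, a transcription factor of sinusoidal endothelium, at 380 and 373 CPM in Ctrl, 313 and 360 in Pre-T and 162 and 133 in Post-T (-1.24, SE 0.20, edgeR adjusted p = 0.0178). Dnase1l3, a secreted nuclease, was at 189 and 203 CPM in Ctrl and 43.6 and 80.8 in Post-T (-1.47, adjusted p = 0.0874), and Plxnc1, a semaphorin receptor, at 262 and 276 against 101 and 103 (-1.27, adjusted p = 0.0566). Without nuclei of another class 4 were called lower, Gata4, Dnase1l3, Plxnc1 and Dab2, where 2.56% of all genes were called in either direction. Stellate and fibroblast markers, which no class rule covered, were also lower in the Post-T endothelial nuclei. Their part in the level of Gata4 was not tested. Leaving out 1 mouse gave between 0 and 6 called lower, none without a Ctrl or a Pre-T mouse, and Flt4 was called higher without Post-T 1. Oit3 was low in Post-T 1 only, at 9.24 CPM against 53.1 to 66.7 in the other 5 mice. Ehd3 was at 270 and 398 CPM in Ctrl, 171 and 167 in Pre-T and 25.7 and 193 in Post-T, below Ctrl in all 4 Western Diet mice, and was called lower in Pre-T than in Ctrl when either Post-T mouse was left out.

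A list of 17 other capillary and vascular genes, likewise made with earlier results known, had a median log2 fold change of 1.98 in Post-T against Ctrl. Of these, 9 were called higher, against 2.51% of all genes, and 0 lower. They included the basement membrane genes Col4a1 (1.95), Col4a2 (2.14) and Nid2 (1.88), the angiopoietin Angpt2 (3.27), the fatty acid carrier Fabp4 (2.51), Igfbp3 (4.70) and Ly6a (1.98). Kcne3, a potassium channel subunit, rose from 1.97 and 2.42 CPM in Ctrl through 17.7 and 8.38 in Pre-T to 77.2 and 106 in Post-T (5.51, SE 0.47, edgeR adjusted p = 0.00350). Apln, the tip cell ligand apelin, had 1 UMI in each Ctrl and Pre-T mouse and 11 and 59 in Post-T. Vwf, Cldn5, Sox17, Lama4, Cav1 and Vwa1 were not called by edgeR, and neither were Rbp7 and Aplnr, which had 0 to 4 UMIs per Ctrl mouse. Vwf was at 226 CPM in Post-T 1 and 9.39 in Post-T 2. Over all genes, 2.56% were called in Post-T against Ctrl without nuclei of another class. Without nuclei of another class 8 of the 9 were called (not Ly6a), and 1 to 10 when a single mouse was left out, fewest without Pre-T 1, where Kcne3 remained, and most without Post-T 2. Vwf was called lower without Post-T 1 and higher without Post-T 2. In Post-T against Pre-T 6 were called higher (Apln, Col4a1, Col4a2, Nid2, Kcne3 and Fabp4), against 1.53% of all genes. In Pre-T against Ctrl Ly6a alone was called (2.75, edgeR adjusted p = 0.0404), against 1.01% of all genes in either direction. Over all genes, 214 of 18381 were called in Post-T against Pre-T without nuclei of another class. Without nuclei of another class 3 of the 6 were called against Pre-T (Col4a2, Nid2 and Kcne3) and 0 without Pre-T 1 or Pre-T 2. The Ly6a call in Pre-T against Ctrl was lost without nuclei of another class and without any 1 of the Ctrl and Pre-T mice.

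**Figure D5:**
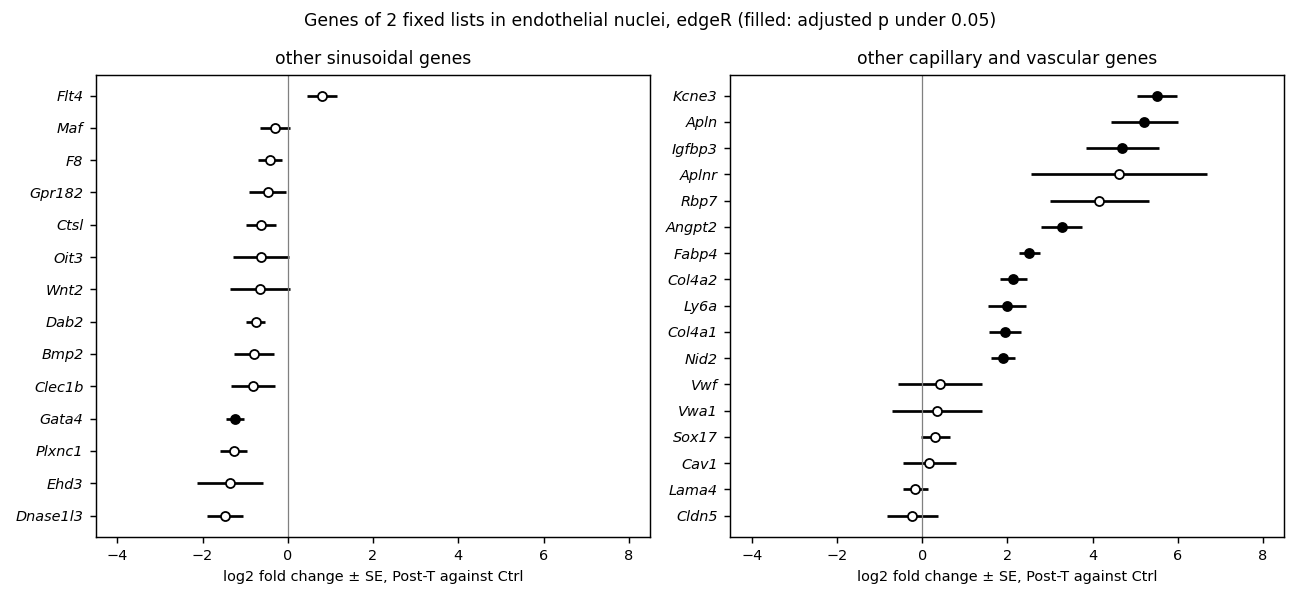
Log2 fold change with its standard error (horizontal axis), Post-T against Ctrl, of 14 other sinusoidal and 17 other capillary and vascular genes in endothelial nuclei. Filled points have an edgeR adjusted p under 0.05. The sinusoidal genes lie mostly below 0, with Gata4 filled, and 9 of the vascular genes are filled above 0.

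Genes of neighbouring vessels were read beside them, from lists likewise made with earlier results known. Of 4 portal genes, 2 were called higher in Post-T than in Ctrl, against 2.51% of all genes. Dll4, the Notch ligand, rose from 29.2 and 36.7 CPM in Ctrl to 180 and 163 in Post-T (2.50, edgeR adjusted p = 0.00659) and Efnb2, the arterial ephrin, from 68.5 and 82.3 to 223 and 334 (2.04, edgeR adjusted p = 0.0183). Both were also called against Pre-T, where the scavenger receptor Msr1 was called lower (-1.39, edgeR adjusted p = 0.0211). Of all genes, 3.94% were called in that comparison. Without nuclei of another class Dll4 and Msr1 kept these calls and Efnb2 lost both. Macrophage markers in the endothelial nuclei were also lower in Post-T (234 and 45.5 CPM) than in Pre-T (722 and 851). The part of macrophage RNA in the level of Msr1 was not tested. Against Ctrl, neither Dll4 nor Efnb2 was called without Ctrl 1, and Dll4 alone without Ctrl 2, Pre-T 1 or Pre-T 2. Against Pre-T, none of the 3 was called without Pre-T 1 or Pre-T 2, Efnb2 was not called without Ctrl 1, Ctrl 2 or Post-T 2, and Msr1 was not called with all barcodes. Of 6 genes of the central sinusoid and vein 0 were called by edgeR or DESeq2 in any comparison. At an unadjusted p under 0.05 were 0 in Pre-T and 0 in Post-T, each against Ctrl, and 1 in Post-T against Pre-T. Of all genes, 17.3, 22.3 and 21.3% were. Rspo3 was at 7.11 CPM in Post-T 2 and 131 in Post-T 1. Without Post-T 1, Cdh13, Rspo3 and Wnt9b were called lower in Post-T than in Ctrl and in Pre-T, as were Cdh13 and Rspo3 among nuclei with a Stab2 UMI, and with all barcodes Kit was called higher than in both. Of 4 lymphatic genes, Ccl21a, Pdpn and Mmrn1 had few UMIs in most mice, highest in Ctrl 1 and fewest in Post-T. Ccl21a had 47 and 4 UMIs in Ctrl, 8 and 17 in Pre-T and 0 in both Post-T mice. Pdpn had 20 and 6 in Ctrl, 1 and 1 in Pre-T and 0 in both Post-T mice. Mmrn1 had 115 and 19 in Ctrl, 45 and 21 in Pre-T and 2 in each Post-T mouse. Prox1, which hepatocytes also express, fell by 1.49 on the log2 scale in Post-T against Ctrl (edgeR adjusted p = 0.0118). Prox1 was not called without nuclei of another class, where Mmrn1 was called lower instead, nor without a Ctrl or a Pre-T mouse. The part of hepatocyte RNA in its level was not tested.

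The genes whose log2 CPM followed the members most closely over the 6 mice were listed as a description, among 7687 genes. Those nearest to the mean of the sinusoidal genes were Tmem132e, Aldh16a1, Guf1, Slc43a2 and Oit3 (Pearson r 0.981 to 0.993), and those nearest to the mean of the capillary genes were Apaf1, Arl15, Kcne3, Slc22a3 and Brd1 (0.993 to 0.997). The sinusoidal profile is set largely by the low level in Post-T 1, and the groups overlap in it. In the capillary profile both Post-T mice are high. Slc22a3, an organic cation transporter, was at 5.90 and 4.50 CPM in Ctrl, 28.2 and 9.82 in Pre-T and 91.1 and 111 in Post-T.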

How the data were processed

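Reads were aligned by the authors to the mm10 mouse genome with Cell Ranger 6.1.1, and raw UMI counts per gene and barcode were deposited for each library (10x 3′ chemistry). Whether intronic reads were counted is not given in the sources used here. The filter of the study was applied (over 200 and under 5000 genes, mitochondrial UMIs under 5%). Libraries held 22453658 to 40307564 UMIs. No clustering and no doublet caller were used. Hepatocyte nuclei carried at least 5 of 8 markers, and T, macrophage and B nuclei at least 3 of their 7 or 8, with under 3 endothelial genes.

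Counts of endothelial nuclei were summed per mouse. Genes with at least 3 counts were tested with edgeR 4.0.16 (R 4.3.3), quasi-likelihood, TMM scaling, with the 6 mice fitted together (residual degrees of freedom, 3), Benjamini-Hochberg adjustment over 20160 genes and a threshold of 0.05. DESeq2 1.42.0 was an alternative. Standard errors are the log2 fold change divided by the square root of F. CPM is UMIs per 1000000 UMIs of the summed nuclei, without TMM. TMM set the median log2 fold change of all genes to 0.03 for Pre-T and -0.07 for Post-T, each against Ctrl, and to -0.17 between Post-T and Pre-T, where unscaled totals gave 0.24, -0.20 and -0.51, so fold changes are relative to these medians and differ from ratios of CPM. In simulated counts, 93% of 100 genes changed by 2 on the log2 scale, among 19503, were recovered in Post-T against Ctrl. Recovery was 86% in Post-T against Pre-T and 97% in Pre-T against Ctrl. The spread of each simulated gene was the edgeR estimate, which is drawn towards that of other genes. Genes whose mice differ more than that were not represented, and recovery in the data may be lower. Esm1 (2.95, edgeR adjusted p = 0.0706) and Cd34 (2.22, edgeR adjusted p = 0.0633) were not called in Post-T against Pre-T. The changed genes were drawn from those of higher mean CPM, so recovery was not measured for rare genes such as Apln and Rbp7. The 10 genes, the lists and the named genes (the members, the rule genes, every gene called in a list and the 5 most alike) were chosen with earlier results of these data known. Stab1, Stab2, Clec4g, Fcgr2b, Cd34, Plvap and Esm1 overlap annotated genes on the other strand and Mrc1 overlaps Mir511. If the counting ignored strand, which is not given in the sources used here, reads of such pairs cannot be told apart.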

Additional observations from a re-analysis of the deposited data

How the results depend on the processing

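With 2 mice per group, the tests rest on 3 residual degrees of freedom, and leaving out a mouse leaves its group with 1, assumed to vary like the rest. Endothelial nuclei of low depth limit the rare genes Cd34, Lyve1 and Plvap. The cause of each change below was not tested. Reading only nuclei with a Stab2 UMI was an alternative chosen after seeing the data.

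Genes called in Pre-T against Ctrl (204) became 804 with DESeq2, 74 at a minimum of 10 counts, 803 without a filter, 17 without nuclei of another class, 510 with all barcodes, 835 in nuclei with a Stab2 UMI, and 0 to 1076 without 1 mouse. In Post-T against Ctrl (1377) they became 471 without nuclei of another class, 2249 with all barcodes and 77 to 1530 without 1 mouse. In Post-T against Pre-T (794) they became 1271 with DESeq2, 1466 without a filter, 214 without nuclei of another class, 2028 with all barcodes, 1443 in nuclei with a Stab2 UMI, and 0 to 1654 without 1 mouse.

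Members called in Post-T against Ctrl (4) became 1 without nuclei of another class and 0 to 5 without 1 mouse. In Post-T against Pre-T (1) they became 3 with DESeq2, 0 at 10 counts, 3 without a filter, 2 with 4 of 7 genes, 0 without nuclei of another class, 5 with all barcodes, 3 in nuclei with a Stab2 UMI, and 0 to 3 without 1 mouse.

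For each of the 4 capillary genes, the direction in Post-T against Ctrl held under 15 alternatives. Directions that turned were all of differences that had not passed the test. In Pre-T against Ctrl, Fcgr2b (0.07) was at -0.0112 with 4 of 7 genes, -0.17 with all barcodes and -0.0038 in nuclei with a Stab2 UMI, and Cd34 and Emcn were at -0.28 and -0.20 with all barcodes. In Post-T against Ctrl, Stab1 was at -0.19 without nuclei of another class, and Stab2 and Mrc1 at 0.20 and 0.20 with all barcodes. In Post-T against Pre-T, Stab2 and Plvap were at -0.0887 and -0.25 without nuclei of another class, and Mrc1 at 0.39 with all barcodes. Without 1 mouse the log2 fold changes in Pre-T against Ctrl ran from -0.33 to 0.18 for Clec4g, -0.20 to 0.40 for Fcgr2b, -0.27 to 0.16 for Mrc1 and -0.33 to 1.73 for Cd34. In Post-T against Ctrl they ran from -0.0814 to 0.53 for Stab1, -1.06 to 0.27 for Stab2 and -1.05 to 0.29 for Mrc1, and in Post-T against Pre-T from -0.53 to 0.80 for Stab2, -0.38 to 0.77 for Lyve1 and -0.98 to 0.36 for Mrc1.

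With the replicate number as a replicate block, 277, 1377 and 774 genes and 0, 5 and 3 members were called in the 3 comparisons, Clec4g being added in both that hold Post-T (adjusted p = 0.0262 against Ctrl and 0.0423 against Pre-T) and Cd34 in Post-T against Pre-T. Same-numbered mice of different groups did not deviate together (r = -0.24, 0.04 and -0.05 over 7673 genes), so the mice share only a number.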
